A study of Mus musculus with 8 samples.

Results

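Steroid dehydrogenases are enzymes that oxidise or reduce the hydroxyl and keto groups of steroids, and so switch hormones between active and inactive forms. The 3β-hydroxysteroid dehydrogenases (Hsd3b genes) act on the A ring of the steroid nucleus, and the 17β-hydroxysteroid dehydrogenases (Hsd17b genes) are named for the hydroxyl that separates estradiol from estrone and testosterone from androstenedione. Several Hsd17b enzymes work mainly on other substrates, such as fatty acyl-CoA, retinoids or branched-chain amino acid intermediates, and the liver is a main site of steroid inactivation. 9 genes were followed here in the livers of mice with a mutated Cftr, the chloride channel gene of cystic fibrosis (CF), namely Hsd3b2, Hsd3b3, Hsd3b5, Hsd17b2, Hsd17b6, Hsd17b10, Hsd17b11, Hsd17b12 and Hsd17b13. Probes were taken by gene symbol from the platform annotation. 7 of the 9 genes had at least 1 probe, 14 probes in all, out of 25697 on the array. Hsd3b3 and Hsd17b13 had no probe under their symbols and are not analysed here. Each gene is represented by its probe of highest mean over the 8 arrays, and all 7 such probes passed the filter on dim signal, described below.

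The CF group was 4 female mice carrying the ΔF508 change in Cftr, and the WT group was 4 female wild-type littermates, all of C57BL/6 background and 3 weeks old. Animals of both genotypes were weaned at 21 days onto an enriched chow, drank a diluted laxative solution of polyethylene glycol and electrolytes and were killed at 23 days, so neither group shows untreated weaning. Total RNA of whole liver was read on single-colour bead arrays, 1 array per replicate, and values are the deposited log2 levels, which have the same distribution on every array. Nothing in the labels states that the replicates of a group are separate litters, and the number of arrays limits the precision.

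Levels are given on the log2 scale as mean ± SD with n = 4 per genotype, and a difference is the CF mean less the WT mean, with its standard error (SE) from limma, fitted to all 12923 probes above background. The background level was 6.47. A gene is said to be past the threshold when its adjusted p (limma, Benjamini-Hochberg over all tested probes) is under 0.05. The 9 genes were chosen by family and with their CF and WT levels on these same arrays already known, so their own differences are a description and carry no p-value here. Partner genes that are not among the 9 are given with adjusted p. Counts in their lists stand beside the 19.8% of all 9146 named genes tested that were past the threshold. No list was tested as a set.

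The livers were checked for their own and for foreign transcripts. Of 7 hepatocyte markers above background, 0 changed (limma; 0 at an unadjusted p under 0.05), and their mean level was 13.0 to 13.2 in CF and 13.1 to 13.2 in WT. The Cftr probe lay under background on all 8 arrays, at 6.06 ± 0.12 in CF and 6.11 ± 0.03 in WT, and checks nothing about the genotype. Transcripts of tissues that make or inactivate steroids outside the liver were present on some arrays. Cyp11b1, the adrenal 11β-hydroxylase, was at 5.85, 5.92, 7.99 and 5.90 in CF 1 to 4 and at 8.21, 7.60, 5.87 and 7.51 in WT 1 to 4. Cyp21a1, the adrenal 21-hydroxylase, was high on the same 4 arrays, at 7.40 in CF 3 and at 7.45, 7.05 and 7.04 in WT 1, WT 2 and WT 4. Of the 10 adrenal and gonad markers with a probe, 4 were above background and 0 changed (limma; 0 at an unadjusted p under 0.05), and Nr5a1, the master regulator of steroidogenic cells, was under background on all arrays. Kidney transcripts stood out on 1 array, WT 4, where Kap, an androgen-regulated kidney protein, was at 12.42 and the phosphate transporter Slc34a1 at 11.99, against at most 6.48 and 6.38 on the other arrays. Pancreatic enzyme transcripts were highest in CF 1 and WT 3, where the elastase Cela2a was at 13.31 and 14.09. Over 8 such genes the mean level ranged from 7.47 to 12.03 on the CF arrays and from 7.17 to 12.71 on the WT arrays, and 0 changed (limma; 0 at an unadjusted p under 0.05). Of the other marker lists, 0 of 2 kidney and intestine genes and 0 of 4 cholangiocyte genes above background changed (limma; 0 and 0 at an unadjusted p under 0.05). Those 2 were Slc12a1 and Reg3b. Kap, Slc34a1 and Umod did not pass the filter on dim signal, so the count says nothing about the kidney transcripts in WT 4. 1 of 5 macrophage genes rose (Marco by 1.08, adjusted p = 0.0347), 1 of 6 endothelial genes rose (Lyve1 by 1.35, adjusted p = 0.000188), and of 7 stellate cell genes 1 rose (Dcn by 0.32, adjusted p = 0.0263) and 1 fell (Lrat by 0.54, adjusted p = 0.0248). Of the 8 fits without 1 array, the call of Marco was lost in 5 (without WT 3, WT 4, CF 1, CF 3 or CF 4, adjusted p of 0.0593 to 0.0921), that of Dcn in 6 (all but WT 1 and CF 4, 0.0524 to 0.0674), that of Lrat in 4 (WT 4, CF 1, CF 3 or CF 4, 0.0530 to 0.0596) and that of Lyve1 in 0. Without WT 3, WT 4 and CF 1, adjusted p was 0.310 for Marco, 0.220 for Dcn and 0.144 for Lrat. With the adrenal level (mean of Cyp11b1 and Cyp21a1) as a covariate, adjusted p was 0.0511 for Marco and 0.0734 for Lrat. Beyond the fits named here and below, the part of these transcripts in the results was not tested.

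**Figure D1:**
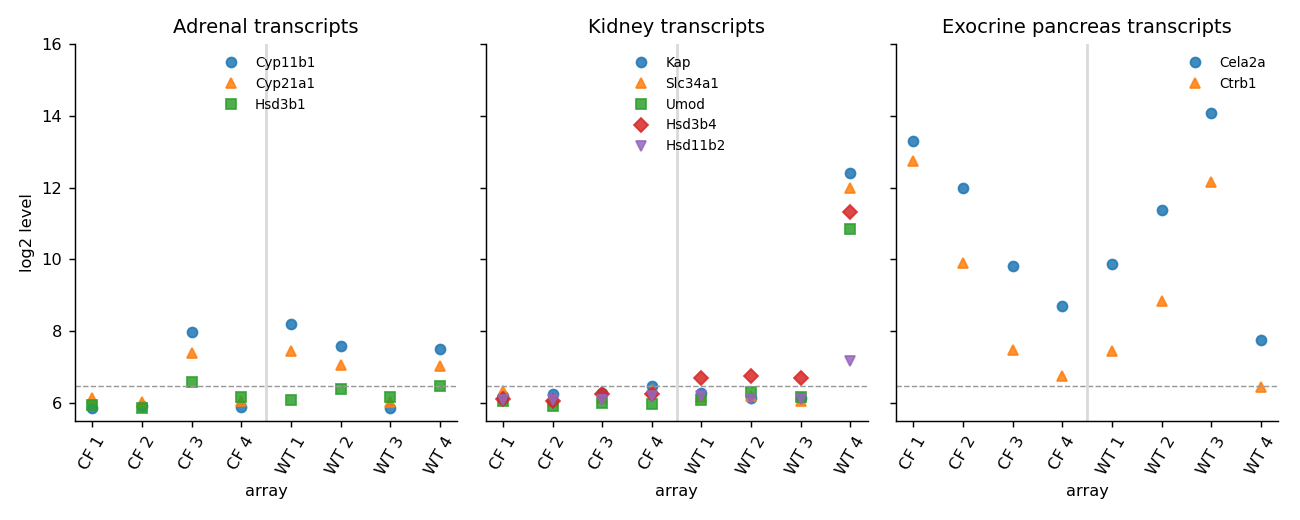
Log2 level of transcripts of adrenal, kidney and exocrine pancreas on each array, CF arrays left and WT arrays right of the grey line, with the background level of 6.47 dashed. Cyp11b1 and Cyp21a1 are above background in CF 3, WT 1, WT 2 and WT 4, every transcript of the kidney panel is highest in WT 4, and pancreas transcripts are highest in CF 1 and WT 3.

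Start regions differ between the genes and are shown because the probes past the threshold come from both kinds. RefSeq (build GRCm38.p6) gives the sequence from 250 bases before to 50 bases after the start of 8 of the 9 genes, and those of 4 genes past the threshold are printed 5′ to 3′ with every CG dinucleotide in capitals. The first pair is poor in CG and the second pair rich.
Hsd3b5, chr3:98645485-98645784, minus strand: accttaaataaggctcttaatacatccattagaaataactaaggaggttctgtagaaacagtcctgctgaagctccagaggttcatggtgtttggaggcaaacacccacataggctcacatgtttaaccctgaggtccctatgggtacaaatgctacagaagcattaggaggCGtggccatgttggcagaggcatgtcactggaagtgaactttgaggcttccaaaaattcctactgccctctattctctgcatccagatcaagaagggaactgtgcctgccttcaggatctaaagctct
Hsd17b6, chr10:128007562-128007861, minus strand: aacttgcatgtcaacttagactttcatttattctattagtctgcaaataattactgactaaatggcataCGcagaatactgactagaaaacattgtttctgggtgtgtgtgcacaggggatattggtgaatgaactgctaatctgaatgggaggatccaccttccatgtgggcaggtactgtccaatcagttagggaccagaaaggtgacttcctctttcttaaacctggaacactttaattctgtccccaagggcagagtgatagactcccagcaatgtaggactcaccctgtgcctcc
Hsd17b10, chrX:152001646-152001945, plus strand: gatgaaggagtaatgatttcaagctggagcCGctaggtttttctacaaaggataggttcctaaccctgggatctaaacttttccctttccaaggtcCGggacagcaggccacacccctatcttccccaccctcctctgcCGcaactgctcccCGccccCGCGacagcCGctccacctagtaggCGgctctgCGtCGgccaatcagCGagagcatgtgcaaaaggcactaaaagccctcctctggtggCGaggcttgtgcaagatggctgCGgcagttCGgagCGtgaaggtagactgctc
Hsd17b12, chr2:94157860-94158159, minus strand: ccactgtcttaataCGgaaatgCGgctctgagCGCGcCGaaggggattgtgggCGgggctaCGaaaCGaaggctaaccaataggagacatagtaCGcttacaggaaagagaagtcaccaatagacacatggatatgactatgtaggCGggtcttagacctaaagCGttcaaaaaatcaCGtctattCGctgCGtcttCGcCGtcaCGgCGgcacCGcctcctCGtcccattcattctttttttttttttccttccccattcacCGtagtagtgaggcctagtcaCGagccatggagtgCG

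Over all 32851 start regions of the table the median was 7 CG. Hsd3b5, Hsd3b2 and the upstream start of Hsd17b6 held 1 each, a count that 14.1% of all regions did not exceed, both starts of Hsd3b3 held 0, and Hsd17b13 held 3. Hsd17b10 held 15, Hsd17b11 18 and Hsd17b12 23, and 80.0% of all regions held no more than Hsd17b12. Motifs were searched on both strands with no mismatch. The GC box GGGCGG, present in 35.7% of all regions, was found in Hsd17b10, Hsd17b11 and Hsd17b12. The CCAAT box, present in 37.4%, was found in those 3 genes and in Hsd3b3 and Hsd17b6. The STAT5 element TTCNNNGAA (8.30% of regions), TATAAA (13.6%) and the E-box CACGTG (7.15%) were in none of these windows.

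Of the 7 measured genes, 4 were past the threshold with lower levels in CF, namely Hsd3b5, Hsd17b2, Hsd17b6 and Hsd17b12, and 1 with a higher level, Hsd17b10. Hsd3b2 and Hsd17b11 were not past it. Over all 9146 named genes tested, 8.79% were lower in CF and 11.0% higher, 19.8% in all, and 19.1% of all tested probes were past the threshold. The 4 CF arrays did not overlap the 4 WT arrays for 4 of the 7 genes, against 24.4% of all genes. Since the genes were named with these values known, the counts are given beside the background and nothing is read from them. The median difference was -0.84 over the 7 genes and 0.02 over all tested genes, and in bulk liver a smaller share of a cell type cannot be told apart from less transcript per cell.

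**Figure D2:**
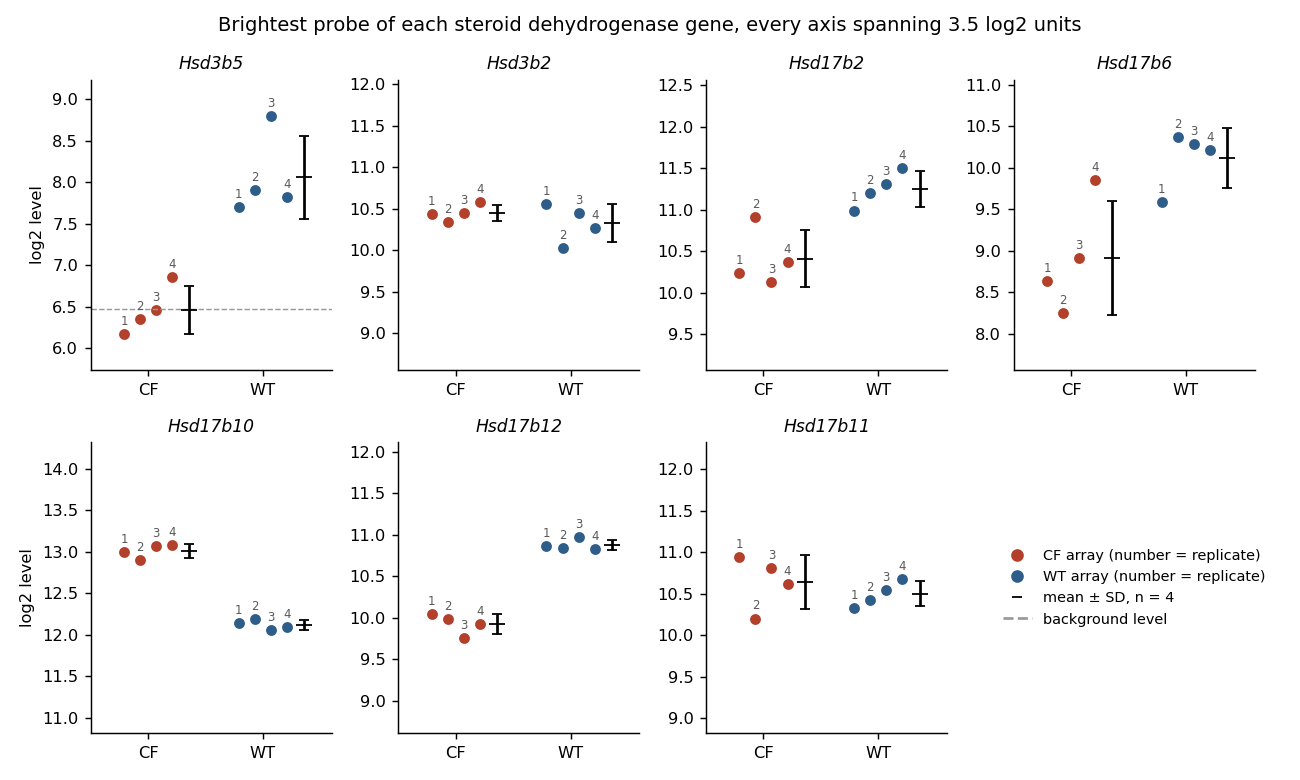
Log2 level of the brightest probe of each of the 7 genes on every array, CF left and WT right, numbered by replicate, with mean ± SD (n = 4) and the background level of 6.47 dashed where it falls in the panel; every axis spans the same range. CF points lie below WT points for Hsd3b5, Hsd17b2 and Hsd17b12 and above them for Hsd17b10, and Hsd3b2, Hsd17b6 and Hsd17b11 overlap.

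Hsd3b5 encodes a 3-ketosteroid reductase of mouse liver that inactivates androgens such as dihydrotestosterone and is known to be higher in adult males. Its only probe (ILMN_1234449) read 6.17, 6.35, 6.46 and 6.86 in CF 1 to 4 and 7.70, 7.91, 8.80 and 7.82 in WT 1 to 4. All CF arrays were below all WT arrays, and CF 4 was the single CF array above background. The means were 6.46 ± 0.29 in CF and 8.06 ± 0.50 in WT, a difference of -1.60 ± 0.24 SE, and 99.4% of tested genes had a smaller one. With values under background raised to the background level the difference was -1.49, or 2.82-fold lower in CF. It was -1.35 without WT 3, the highest WT array, and -1.79 with the adrenal transcript level as a covariate.

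Mup20 was the gene whose pattern was most like that of Hsd3b5. Mup20 encodes a major urinary protein that serves as a male pheromone, and its Pearson r with Hsd3b5 was 0.996 over the 8 arrays and 0.993 after the genotype means were removed. It read 5.97, 6.13, 6.30 and 7.16 in CF 1 to 4 and 8.04, 8.45, 9.83 and 8.19 in WT 1 to 4. CF 4 was the highest CF array and WT 3 the highest WT array for both genes. Ugt2b1, a glucuronosyltransferase, followed with r = 0.987 (0.924 within genotypes) and Txn1, thioredoxin, with r = 0.976 (0.844 within genotypes). These are descriptions over 8 arrays that share the genotype contrast, and Hsd3b5 and Mup20 were each above background on 1 CF array.

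**Figure D3:**
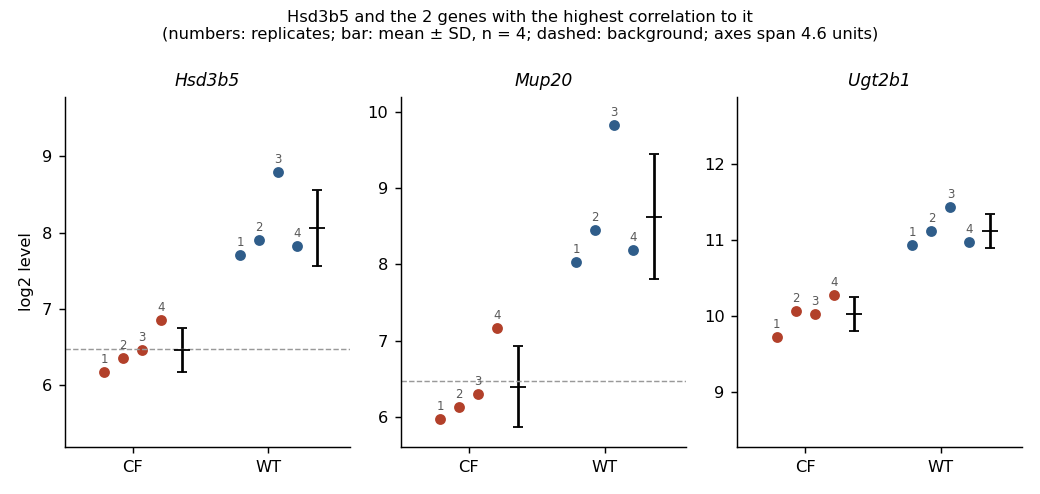
Log2 level of Hsd3b5, Mup20 and Ugt2b1 on every array, CF left and WT right, numbered by replicate, with mean ± SD (n = 4); the dashed line is the background level of 6.47 and every axis spans the same range. CF 4 is the highest CF array and WT 3 the highest WT array in each panel.

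Hsd3b2, a 3β-hydroxysteroid dehydrogenase and isomerase next to Hsd3b5 and Hsd3b3 in the gene cluster on chromosome 3, showed little difference on its brightest probe. That probe (ILMN_2898958) read 10.43, 10.34, 10.44 and 10.58 in CF 1 to 4 and 10.56, 10.03, 10.45 and 10.27 in WT 1 to 4. The groups overlap, and the difference was 0.12 ± 0.11 SE (10.45 ± 0.10 in CF and 10.33 ± 0.23 in WT). The gene has 6 probes, of which 4 were above background, and the other 3 of these 4 went the opposite way. Probe ILMN_1214838 averaged 7.32 ± 0.27 in CF and 7.60 ± 0.11 in WT (-0.29 ± 0.13 SE), ILMN_1234480 averaged 7.13 ± 0.44 in CF and 7.34 ± 0.16 in WT (-0.22 ± 0.19 SE), and ILMN_1233611 averaged 6.48 ± 0.16 in CF and 6.73 ± 0.14 in WT (-0.25 ± 0.10 SE). ILMN_1214838 and ILMN_1234480 were lowest in CF 1 and CF 2 and near the WT values in CF 3 and CF 4. As the mean of the 4 probes above background Hsd3b2 differed by -0.16. Members of this family are close in sequence, so signal of these probes may come from more than 1 of them, and the direction for Hsd3b2 depends on the probe. The genes most like its brightest probe were Ncln (r = 0.933 over the 8 arrays), Tmem150c (0.924) and Wwp2 (0.921).

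**Figure D4:**
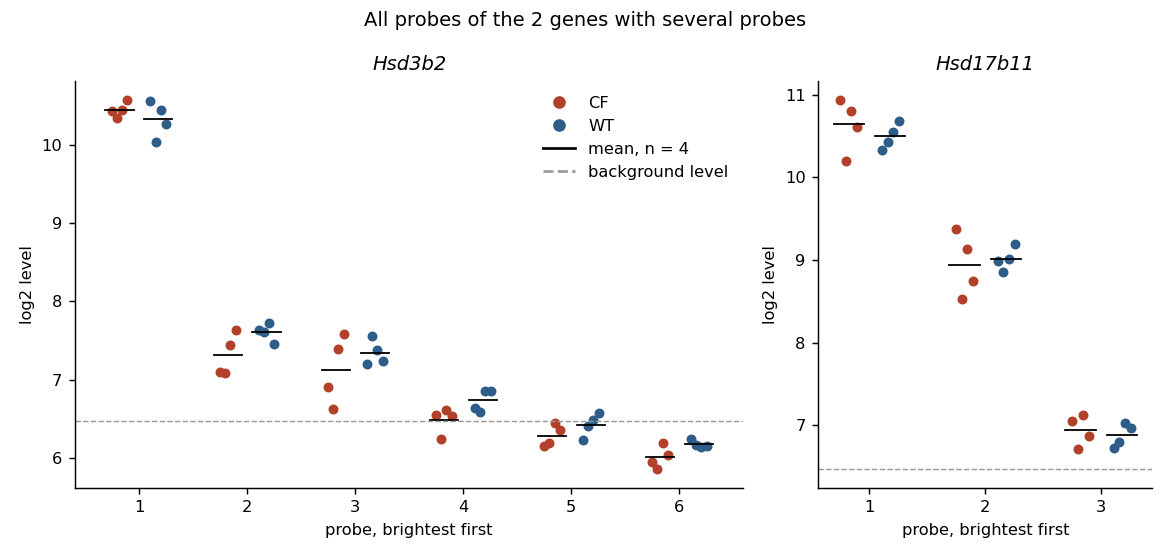
Log2 level of all 6 probes of Hsd3b2 and all 3 probes of Hsd17b11, brightest first, with CF arrays left and WT arrays right of each position, black lines at the means (n = 4) and the background level of 6.47 dashed. CF and WT points overlap for every probe, and the CF mean is the higher one on the brightest probe of both genes.

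Hsd17b2 oxidises estradiol to estrone and testosterone to androstenedione and so inactivates both hormones. Its probe (ILMN_1213811) read 10.24, 10.91, 10.14 and 10.37 in CF 1 to 4 and 10.99, 11.21, 11.31 and 11.50 in WT 1 to 4. The groups did not overlap, though CF 2 came close to WT 1. The level was 10.41 ± 0.34 in CF and 11.25 ± 0.21 in WT, 1.79-fold lower in CF (difference -0.84 ± 0.17 SE). WT 4, the array with kidney transcripts, was the highest, and without it the difference was -0.76. With the adrenal transcript level as a covariate it was -0.95. With WT 3 and CF 1 both left out the difference was -0.76 and no longer past the threshold, and without WT 3, WT 4 and CF 1 it was -0.63 and not past it. Of the neighbours on chromosome 8, Sdr42e1 differed by 0.30 ± 0.13 SE and did not pass, and Mphosph6 rose by 0.27 (SE 0.07, adjusted p = 0.0197; 0.0532 without WT 2, 0.0512 without WT 3, 0.0508 without CF 2; 0.110 with WT 3, WT 4 and CF 1 all left out). The genes most like it were Mbl2, a mannose-binding lectin of the liver (r = 0.978 over the 8 arrays, 0.928 within genotypes), the small GTPase gene Rab29 (0.976 and 0.903) and Adal (0.972 and 0.910).

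Hsd17b6 oxidises 3α-hydroxysteroids such as androstanediol and also acts on retinol, and it lies in a cluster of retinol dehydrogenase genes on chromosome 10. Its probe (ILMN_1234552) read 8.64, 8.25, 8.91 and 9.85 in CF 1 to 4 and 9.58, 10.38, 10.28 and 10.22 in WT 1 to 4. CF 4 lay above WT 1, so the groups overlap, and the CF arrays spread over more than 1 log2 unit. The level was 8.91 ± 0.68 in CF and 10.12 ± 0.36 in WT, a difference of -1.20 ± 0.31 SE. This difference is the least stable of those past the threshold, since it was not past it in 6 of the 8 fits that left out 1 array (all but those without WT 1 and without CF 4). Over all 8 it ranged from -1.52 without CF 4 to -0.98 without CF 2, and it was -1.38 without WT 1. It was also not past the threshold with a trended and robust variance prior, without WT 3 and CF 1 (-1.06) and without WT 3, WT 4 and CF 1 (-0.98). The most similar genes were Pigt, of glycolipid anchor transfer (r = 0.967 over 8 arrays), the actin nucleator gene Cobl (0.958) and the co-chaperone gene St13 (0.953), with 0.925, 0.946 and 0.883 within genotypes.

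Of 14 other retinol and short-chain dehydrogenases above background, 3 fell in CF, 2 rose and 9 did not pass. Among all tested genes 8.79% fell and 11.0% rose. The list median was -0.22 against 0.02 for all tested genes. Sdr9c7, the protein-coding neighbour of Hsd17b6, averaged 6.60 ± 0.16 in CF livers, against 7.33 ± 0.18 in WT livers (-0.73 ± 0.11 SE, adjusted p = 0.00237), on the brightest of 3 probes of the same sign. Rdh11, which reduces retinal and oxidises retinol, averaged 7.66 ± 0.47 in CF livers, against 9.32 ± 0.05 in WT livers (-1.66 ± 0.20 SE, adjusted p = 0.000763), and Rdh16 fell by 0.46 (SE 0.09, adjusted p = 0.00684). Rdh5 rose by 0.50 (SE 0.09, adjusted p = 0.00456) and Rdh9 by 0.35 (SE 0.09, adjusted p = 0.0207). The call of Rdh9 was lost without WT 2 (adjusted p = 0.0507) and without CF 1 (adjusted p = 0.0535). With WT 3, WT 4 and CF 1 all left out, adjusted p was 0.0601 for Sdr9c7, 0.0628 for Rdh16, 0.115 for Rdh5 and 0.169 for Rdh9.

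Hsd17b12 is the 3-ketoacyl-CoA reductase of the endoplasmic reticulum, which carries out the first reduction in each cycle that lengthens long-chain fatty acids. Its probe (ILMN_2689908) read 10.04, 9.99, 9.76 and 9.92 in CF 1 to 4 and 10.87, 10.85, 10.97 and 10.83 in WT 1 to 4. The gap between the groups was wider than the range within either. The level was 9.93 ± 0.12 in CF and 10.88 ± 0.06 in WT, a difference of -0.95 ± 0.08 SE, 1.93-fold lower in CF. It stayed between -0.90 and -1.02 in all 18 alternative settings and past the threshold in each. Its pattern was most like those of Arsa, arylsulfatase A (r = 0.992), Serpina12, vaspin (0.991), and Dct (0.990), but within genotypes these correlations were 0.696, 0.863 and 0.698.

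Of 8 other genes of the elongation cycle above background, 4 fell in CF, 1 rose and 3 were not past the threshold, with a list median of -0.35. Elovl6, the elongase that condenses palmitoyl-CoA with malonyl-CoA, averaged 7.68 ± 0.29 in CF livers, against 9.24 ± 0.11 in WT livers (-1.56 ± 0.13 SE, adjusted p = 0.000150). Elovl1, an elongase of very long chains, fell by 0.43 (SE 0.11, adjusted p = 0.0222). Hacd1, a 3-hydroxyacyl-CoA dehydratase, averaged 9.43 ± 0.15 in CF livers, against 10.08 ± 0.13 in WT livers (-0.65 ± 0.09 SE, adjusted p = 0.00210), and Tecr, the enoyl reductase that closes the cycle, averaged 11.32 ± 0.30 in CF livers, against 11.96 ± 0.11 in WT livers (-0.64 ± 0.14 SE, adjusted p = 0.0130). Hacd3, another dehydratase, rose by 0.29 (SE 0.08, adjusted p = 0.0302), and Elovl2 (-0.26), Elovl5 (-0.23) and Hacd2 (0.12) did not pass. Elovl1 was not past the threshold without WT 2 (adjusted p = 0.0575) or CF 4 (0.0542), Hacd3 without WT 2 (0.0750), WT 4 (0.0771), CF 1 (0.0717) or CF 2 (0.0643), and Tecr with WT 3 and CF 1 both left out (0.0595). Without WT 3, WT 4 and CF 1, adjusted p was 0.100 for Elovl1, 0.223 for Hacd3 and 0.144 for Tecr.

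**Figure D5:**
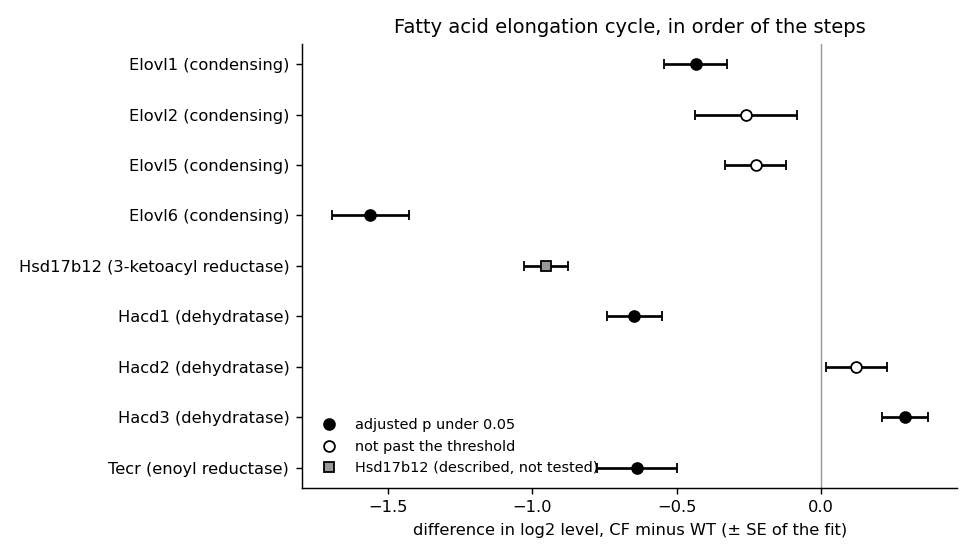
Difference in log2 level, CF minus WT, with the SE of the fit for the measured genes of the fatty acid elongation cycle, ordered by step; filled circles had adjusted p under 0.05, open circles did not, and the grey square is Hsd17b12. Elovl6, Hsd17b12, Hacd1, Tecr and Elovl1 lie below 0 and Hacd3 above it.

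Hsd17b10 is a mitochondrial dehydrogenase that works in isoleucine breakdown and is also a subunit of the mitochondrial RNase P, which cuts tRNAs from mitochondrial transcripts. It was the only one of the 7 genes past the threshold with a higher level in CF. Its probe (ILMN_1238614) read 12.99, 12.90, 13.07 and 13.07 in CF 1 to 4 and 12.14, 12.19, 12.06 and 12.09 in WT 1 to 4. Each group spanned a small part of the gap between them. The level was 13.01 ± 0.08 in CF and 12.12 ± 0.06 in WT, a difference of 0.89 ± 0.07 SE, or 1.85-fold higher in CF, and it ranged from 0.84 to 0.93 in 18 alternative settings, past the threshold in each. Slc35g1 (r = 0.992), the actin-severing gene Cfl1 (0.991) and Radx (0.991) were most like it, with correlations of 0.614, 0.719 and 0.603 within genotypes. The protein-coding genes on either side on the X chromosome were not higher in CF. Huwe1, a ubiquitin ligase, differed by -0.04 ± 0.12 SE, and Ribc1 by -0.31 ± 0.09 SE (adjusted p = 0.0436, lost without any single array but CF 2 or CF 4, for example 0.107 without CF 1, and 0.345 without WT 3, WT 4 and CF 1).

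Among 13 genes of isoleucine breakdown and mitochondrial RNase P above background, 3 rose and 2 fell in CF and the other 8 were not past the threshold. The list median was 0.17, and 11.0% of all tested genes rose and 8.79% fell. Acat1, the thiolase that follows Hsd17b10 in the pathway, averaged 8.72 ± 0.31 in CF livers, against 6.91 ± 0.13 in WT livers (1.81 ± 0.14 SE, adjusted p = 9.2e-05), and Bcat2, the branched-chain transaminase of the first step, rose by 0.48 (SE 0.08, adjusted p = 0.00389). Bckdha, of the branched-chain ketoacid dehydrogenase, had a difference of 0.28 ± 0.08 SE (adjusted p = 0.0476). Acadsb, an acyl-CoA dehydrogenase earlier in the pathway, had -0.45 ± 0.13 SE (adjusted p = 0.0423), and Elac2, which cuts the other end of mitochondrial tRNAs, had -0.28 ± 0.08 SE (adjusted p = 0.0439). Trmt10c, a partner of Hsd17b10 in the RNase P, differed by -0.02 ± 0.10 SE and did not pass. The calls of Bckdha, Acadsb and Elac2 were lost in 7 (all but CF 2), 6 (all but WT 1 and CF 4) and 7 (all but CF 4) of the 8 fits without 1 array, with adjusted p up to 0.114, 0.103 and 0.108. Without WT 3, WT 4 and CF 1, adjusted p was 0.0617 for Bcat2, 0.430 for Bckdha, 0.443 for Acadsb and 0.231 for Elac2.

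Hsd17b11 is a dehydrogenase of lipid droplets, encoded beside Hsd17b13, the related droplet protein of hepatocytes, on chromosome 5. Its brightest probe (ILMN_2705361) read 10.94, 10.20, 10.81 and 10.62 in CF 1 to 4 and 10.33, 10.43, 10.55 and 10.68 in WT 1 to 4. The CF arrays reach both above and below the WT arrays. The difference was 0.15 ± 0.15 SE (10.64 ± 0.32 in CF and 10.50 ± 0.15 in WT). The other probes differed by -0.07 ± 0.17 SE and 0.06 ± 0.11 SE, and CF 2 was the lowest array on all 3 probes. The protein-coding neighbour Nudt9 fell by 0.32 (SE 0.08, adjusted p = 0.0215; 0.0579 without WT 3, 0.0515 without WT 4, 0.0527 without CF 3; 0.208 with WT 3, WT 4 and CF 1 all left out). Hsd17b11 was not past the threshold in any of 18 alternative settings. Picked from all tested genes for the highest r over the 8 arrays were Bsg (0.957, and 0.956 within genotypes), Ugp2 (0.957 and 0.965) and Kcnn1 (0.956 and 0.955). Ugp2 makes UDP-glucose. Bsg lay near background, at 6.54 in CF and 6.46 in WT.

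Of 17 other lipid droplet genes above background, 3 rose in CF (limma, with 8 at an unadjusted p under 0.05), 0 fell and 14 did not pass. The list median was 0.06, and 11.0% of all tested genes rose and 8.79% fell, so no rise of the list is read from the count. Pnpla2, the lipase that starts triglyceride breakdown, averaged 11.82 ± 0.10 in CF livers, against 10.86 ± 0.22 in WT livers (0.95 ± 0.11 SE, adjusted p = 0.000689). Plin5, a droplet coat protein that contacts mitochondria, averaged 9.93 ± 0.09 in CF livers, against 9.16 ± 0.25 in WT livers (0.77 ± 0.12 SE, adjusted p = 0.00265), and Plin4 rose by 0.71 (SE 0.16, adjusted p = 0.0143). Without WT 3 and CF 1, adjusted p of Plin4 was 0.0652, and without WT 3, WT 4 and CF 1 it was 0.0932 for Plin4 and 0.0682 for Plin5.

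Among 6 further hydroxysteroid dehydrogenases above background, 1 fell, 0 rose and 5 did not pass (limma, with 1 at an unadjusted p under 0.05, list median -0.14). In all, 19.8% of tested genes passed. The faller was Hsd3b7, which acts on sterol intermediates of bile acid synthesis, with a mean of 13.08 ± 0.09 in CF livers, against 13.72 ± 0.12 in WT livers (-0.64 ± 0.08 SE, adjusted p = 0.000896). Hsd11b1, which regenerates corticosterone in liver, averaged 13.56 ± 0.04 in CF livers, against 13.65 ± 0.03 in WT livers (-0.09 ± 0.06 SE), Hsd17b4, of peroxisomal oxidation, differed by 0.08 ± 0.07 SE and Hsd17b7, of cholesterol synthesis, by -0.19 ± 0.26 SE. Hsd3b4 was at 6.13, 6.06, 6.24 and 6.24 in CF 1 to 4 and at 6.71, 6.76, 6.71 and 11.32 in WT 1 to 4. Its high value stood on the array with kidney transcripts, as did that of Hsd11b2, the enzyme that inactivates corticosterone in kidney, at 7.18 in WT 4 and at most 6.19 elsewhere. Hsd3b1, the form of adrenal and gonad, reached at most 6.58 in CF 3.

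Among 8 steroid reductases and aldo-keto reductases, 1 fell, 0 rose and 7 did not pass, against 19.8% of all tested genes past the threshold. The list median was 0.06, and 4 had an unadjusted p under 0.05 (limma). Akr1c12 averaged 9.98 ± 0.24 in CF livers, against 10.67 ± 0.20 in WT livers (-0.69 ± 0.14 SE, adjusted p = 0.00810), and Akr1c6, the mouse 17β-hydroxysteroid dehydrogenase of the aldo-keto reductase family, had -0.40 ± 0.13 SE (adjusted p = 0.0582). Of 6 genes of steroid sulfation, 2 rose and 1 fell. Sult2a6, a hydroxysteroid sulfotransferase, was at 8.53, 9.68, 10.49 and 8.57 in CF 1 to 4 and at 7.01, 7.03, 6.42 and 6.59 in WT 1 to 4 (2.56 ± 0.40 SE, adjusted p = 0.00287). Sult1e1, the estrogen sulfotransferase, was at 7.36 ± 0.43 in CF and under background on all 4 WT arrays (6.20 ± 0.10, adjusted p = 0.00295). With values under background raised to the background level, Sult1e1 was 1.85-fold higher in CF. Papss1, which makes the sulfate donor, fell by 0.58 (SE 0.09, adjusted p = 0.00320). Of 3 steroid receptor and partner genes above background, 0 passed (limma; 0 at an unadjusted p under 0.05), and the estrogen receptor gene Esr1 was at 8.23 ± 0.10 in CF and 8.11 ± 0.10 in WT. The difference of Akr1c12 was -0.63 with adjusted p = 0.0696 when WT 3, WT 4 and CF 1 were all left out.

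Hsd3b5 is one of many liver genes that differ between adult males and females under the growth hormone rhythm, and all 8 animals here were young females. Of 12 male-biased genes above background, 8 fell in CF, 2 rose and 2 did not pass, with a list median of -0.41. Nudt7, a peroxisomal CoA hydrolase, averaged 11.80 ± 0.18 in CF livers, against 13.06 ± 0.19 in WT livers (-1.26 ± 0.12 SE, adjusted p = 0.000251), Mup21 at 6.75 ± 0.24 in CF and 8.26 ± 0.24 in WT (-1.51 ± 0.15 SE, adjusted p = 0.000304) and Cyp7b1, an oxysterol hydroxylase, at 7.92 ± 0.18 in CF and 8.94 ± 0.14 in WT (-1.02 ± 0.10 SE, adjusted p = 0.000377). The risers were Cyp2d9 (0.66 ± 0.17 SE, adjusted p = 0.0263) and the complement gene C6 (0.48 ± 0.14 SE, adjusted p = 0.0353). Of 8 female-biased genes above background, 3 rose, 3 fell and 2 did not pass. Cux2, a female-biased repressor, averaged 8.62 ± 0.41 in CF livers, against 6.88 ± 0.48 in WT livers (1.74 ± 0.26 SE, adjusted p = 0.00218), Acot3 rose by 1.39 (SE 0.39, adjusted p = 0.0369) and the third riser was Sult1e1. A1bg read 6.42, 6.56, 6.57 and 6.44 in CF 1 to 4, with 2 arrays above background. It read 8.63, 8.42, 9.13 and 9.88 in WT 1 to 4 (adjusted p = 0.000448). With values under background raised to the background level, A1bg was 5.65-fold lower in CF. Hao2, a hydroxyacid oxidase, fell by 1.15 (SE 0.18, adjusted p = 0.00308) and Cyp2b9 by 0.49 (SE 0.13, adjusted p = 0.0313). Cyp2d9 was not past the threshold in 3 fits with 1 array left out (WT 3, CF 1 or CF 3, adjusted p of 0.0604 to 0.0682). C6 was not in 5 (WT 2, WT 3, WT 4, CF 1 or CF 4, 0.0653 to 0.0847), Cyp2b9 in 5 (WT 2, WT 4, CF 1, CF 3 or CF 4, 0.0514 to 0.0767) and Acot3 in 6 (all but WT 4 and CF 3, 0.0536 to 0.0940). Of the male-biased fallers, Cyp2u1 was lost in 6 (all but WT 1 and CF 1, 0.0511 to 0.0905). Gstp2 was lost in 6 (all but WT 2 and WT 3, 0.0571 to 0.0966), and the other fallers in 0. The call of Selenbp2, also a faller, was lost without WT 3 and CF 1 (adjusted p = 0.0909). Without WT 3, WT 4 and CF 1, adjusted p was 0.238 for Cyp2d9, 0.291 for C6, 0.145 for Cyp2b9 and 0.0649 for Acot3. It was 0.200 for Cyp2u1, 0.190 for Gstp2 and 0.147 for Selenbp2.

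Among 12 regulators of sex-biased liver genes above background, 3 fell, 1 rose and 8 did not pass (list median -0.21). Ghr, the growth hormone receptor, averaged 11.37 ± 0.12 in CF livers, against 12.04 ± 0.14 in WT livers (-0.67 ± 0.09 SE, adjusted p = 0.00127). Foxa1, a pioneer factor of liver enhancers, averaged 7.75 ± 0.05 in CF livers, against 8.43 ± 0.27 in WT livers (-0.68 ± 0.12 SE, adjusted p = 0.00553), and Foxa2 had -0.49 ± 0.14 SE (adjusted p = 0.0368). Nr1i3, the xenobiotic receptor CAR, rose by 0.59 (SE 0.13, adjusted p = 0.0119). The call of Foxa2 was lost in 7 of the 8 fits without 1 array (all but WT 3), with adjusted p of 0.0523 to 0.0853. It was also lost with the replicate number as a block (adjusted p = 0.083), array weights (0.106) or the adrenal level as a covariate (0.101). Without the filter on dim probes its adjusted p was 0.0516. That of Nr1i3 was lost with the block (adjusted p = 0.0514).

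Correlations among the 7 genes were mostly smaller once the genotype means were removed. The strongest that remained was between Hsd17b2 and Hsd17b10, at -0.755 within genotypes and -0.906 over the arrays. Over the 8 arrays r was -0.990 between Hsd17b10 and Hsd17b12 and 0.913 between Hsd3b5 and Hsd17b12, and after removal of the genotype means these were -0.635 and 0.189. Hsd3b5 and Hsd17b6 had r = 0.863 over the arrays and 0.576 within genotypes, with CF 4 the highest CF array for both. Hsd17b2 had -0.174 with Hsd17b6 within genotypes, where CF 2 was the highest CF array of Hsd17b2 and the lowest of Hsd17b6. These are descriptions over 8 arrays that share a genotype contrast.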

How the data were processed

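Total RNA of whole liver from 4 CF and 4 WT mice was turned into biotin-labelled cRNA and hybridised to mouse bead arrays of 1 colour, and the authors used GenomeStudio, per the labels. The deposited values are on a log2 scale (5.57 to 14.66), and their sorted values were equal between arrays to within 0.000351 (median 6.46 each), as quantile normalization gives, though the step is not named in the sources used here. The background correction is not given in the sources used here, so the size of differences near background is uncertain. The scanner table, with 32 columns named by chip position, could not be tied to samples and was not used, although the plan named it as first choice. Background was the mode (6.18) plus 1.645 times the spread below it (0.173), or 6.47. The 12923 probes that exceeded it on 4 or more arrays entered limma 3.58.1 in R 4.3.3, with lmFit on genotype alone, eBayes and two-sided p-values adjusted by Benjamini-Hochberg. Each p-value tests the difference between genotypes against the spread of these samples within genotypes. eBayes draws the variance of each probe toward that of all probes. That spread also holds the foreign transcripts of single arrays. On simulated data of the same size the test recovered 76% of 0.5 and 98% of 1 log2 changes, with 8 false calls. The simulated noise was normal and independent between probes, and few probes were changed. Foreign transcripts were not simulated, so these rates may not hold for the real arrays. Of all probes 23978 had 1 gene symbol, 0 several and 1719 none. Each partner gene is its brightest tested probe. The 9 genes and the 19 lists (11 of pathways, 8 of markers) were chosen with earlier results of these data known. Named are the 9 genes, the 3 genes most like each by Pearson r, and up to 3 genes per list and direction by adjusted p, with others where a count was small. Genes named without passing, the neighbours and the motifs were chosen after values were seen. Precision is limited by the number of arrays. Alternatives covered the filter, a replicate block, array weights, the variance prior, cyclic loess, a floor at background, the mean over a gene's probes and left-out arrays, and, added after seeing the data, WT 3, WT 4 and CF 1 left out together and the adrenal level (mean of Cyp11b1 and Cyp21a1) as a covariate.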

Additional observations from a re-analysis of the deposited data

Results flagged for a closer look

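In 13 of 150 groups of 4 arrays examined, 1 array lay far from the other 3 (the gap to the nearest array over the range exceeded Dixon's critical value), where chance gives about 1 in 20. None of the 7 measured steroid dehydrogenases was among the 13. The groups examined did not take in every gene of the lists. Strays that share an array are not independent, so their number is not comparable with the rate of 1 in 20. 5 of the strays were WT 4 with kidney-type transcripts, namely Hsd3b4 at 11.32, Hsd11b2 at 7.18, Umod at 10.85, Slc34a1 at 11.99 and Kap at 12.42. CF 3 was the stray array for the adrenal genes Cyp11a1 at 6.79, Cyp11b1 at 7.99 and Cyp21a1 at 7.40, each above the other 3 CF arrays. Selenbp2 was highest in CF 4 at 10.26, Cyp2b9 lowest in CF 3 at 11.40 and Foxa1 lowest in WT 3 at 8.02. Hsdl1 was highest in WT 1 at 7.59, and Hsd17b14 in WT 2 at 6.31, which is under the background level.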

How the results depend on the processing

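Of the steroid dehydrogenases, 1 stayed past the threshold with a higher level in CF in every alternative, and those lower in CF numbered 3 or 4 as single arrays were left out, and 2 (Hsd3b5 and Hsd17b12) both without WT 3 and CF 1 and without WT 3, WT 4 and CF 1. Hsd3b5 has no value where only probes above background on all 8 arrays are tested. As the mean of its 4 probes above background Hsd3b2 was at -0.16. The count of changed probes, 2474, was 1440 with the replicate block, 1612 (without WT 3) to 2090 with single arrays left out, 1060 without WT 3 and CF 1, and 618 without WT 3, WT 4 and CF 1, where 23 genes of the lists passed, against 42 with all arrays. Deviations of equal-numbered arrays correlated at -0.33, 0.06, -0.29 and 0.09. These values also carry the foreign transcripts of single arrays, so they cannot settle whether equal numbers pair the samples. With the replicate block the steroid dehydrogenases kept 4 lower and 1 higher, but 8 of the 42 list calls were lost. Those were Bckdha (limma adjusted p = 0.113), Gstp2 (0.11), Elac2 (0.104), Cyp2u1 (0.0836), Foxa2 (0.083), Rdh9 (0.0739), Hacd3 (0.071) and Nr1i3 (0.0514). Lost as well were the markers Dcn (0.059) and Lrat (0.0508) and the neighbours Mphosph6 (0.0693), Nudt9 (0.0701) and Ribc1 (0.0944). With the adrenal level as a covariate they also kept 4 lower and 1 higher, but 9 of the 42 list calls were lost. These were Gstp2 (limma adjusted p = 0.116), Bckdha (0.115), Acot3 (0.106), C6 (0.101), Foxa2 (0.101), Hacd3 (0.0901), Rdh9 (0.0637), Cyp2u1 (0.0612) and Elac2 (0.0564). The calls of the neighbours Mphosph6 (0.0605) and Ribc1 (0.056) went too. The cause of these changes was not tested, but fewer arrays were fitted wherever arrays were left out. Signal near background limits Hsd3b5, Sult1e1, A1bg and Mup20. Sdr9c7, Cyp2u1 and Ribc1 also averaged near it in CF (6.60, 6.47 and 6.55). With values under background raised to that level, differences were -1.99 for Mup20, -0.71 for Sdr9c7 and -0.23 for Cyp2u1.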
